A study of Mus musculus with 6 samples.

Results

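Cytochrome P450 genes were followed through a chromatin state map of mouse hematopoietic stem cells (HSCs), the bone marrow cells from which all blood lineages arise. The family was taken by symbol: every protein-coding gene in RefSeq's GRCm38.p6 annotation (build mm10) named Cyp, then a family number, a subfamily letter and a gene number. This gave 98 of the 21900 protein-coding genes in the table, and all 98 lay among the 21779 genes that could be placed on the map. Each gene was read over its whole record with 5 kb added on each side, called its window here. The choice used names only and no measured value. The table also holds P450 genes under other names, and Cyp51, Tbxas1 and Ptgis are given separately near the end.

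The study was a chromatin immunoprecipitation (ChIP-seq) experiment on endogenous histone variant H3.3 in adult C57BL/6 mice, wild type (WT) or with HIRA, an H3.3 chaperone, knocked out. WT and HIRA KO each had 2 biological replicates of H3.3 ChIP and 1 input. The knockout was conditional, in the hematopoietic system, induced with poly(I:C), a trigger of interferon, given as 20 ug in each of 2 doses. HSCs were taken 7 days after the first dose, and the labels give this treatment for WT and HIRA KO alike. The promoter that drove the recombinase, or whether other cells lost Hira, is not given in the sources used here. The values were 1 segmentation of the genome into 18 numbered states in bins of 200 bp, tied to the WT H3.3 group by its name only. It covers 2726.83 Mb and holds neither replicates nor read counts, so depth is unknown and all values below describe this 1 map. HIRA KO was not analysed here. Its numbers carry no names, and which signals went into it is not stated in those sources, so the states are described by where they lay.

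States 3 to 6 covered 1.13% of the genome but held a start of 51.6% of the 17492 genes with a known start. States 7 and 8 covered 5.58%, states 9 to 11 covered 13.5%, states 14 and 15 covered 5.48%, states 16 and 17 covered 18.3% and state 18 covered 55.0%. The labelled cell type was read through marker genes. All 12 HSC markers, among them Kit, Mecom and Meis1, had states 3 to 6 in their windows, against 60.3% of all genes. Among the hepatocyte markers it was 1 of 10, the fibrinogen gene Fgb. Its run of these states lay in the flank, 4.54 kb from the record. Of the hepatocyte markers, 7 of 10 lay over 50% in state 18 (against 28.3% of all genes), with Ttr at 100% and Alb, the albumin gene, at 98.4%.

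Cytochrome P450 enzymes are heme proteins that insert an oxygen atom into their substrates, using electrons passed on by a reductase in the endoplasmic reticulum or by ferredoxin in mitochondria. Some members carry out fixed steps in the making or breakdown of steroids, bile acids, vitamin D and retinoic acid. Others, in large groups of neighbouring gene copies, oxidise drugs, plant compounds and fatty acids, mainly in liver, gut and kidney. In blood the best known links are retinoic acid, whose level bears on HSC dormancy, and the eicosanoids, which Cyp4f enzymes break down in leukocytes.

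State 18 was the main state of the P450 windows. The median window had 58.0% of its bases in that state (range 0 to 100%), against 14.3% over all genes, while median window sizes were 32.04 and 27.22 kb. Without the flanks the medians were 59.2% and 0%. Pooled over bases the gap was smaller, with state 18 at 53.7% of the P450 windows and 36.9% of all gene windows. The pooled P450 share was near the 55.0% of the genome in that state. State 18 covered over 50% of the window in 55 of 98 members (56.1%, against 28.3% of all genes). Bins of states 3 to 6 were present in 21 of 98 (21.4%, against 60.3%) and bins of states 7 or 8 in 20 of 98 (20.4%, against 56.2%). The order was the other way for states 9 to 11, present in 61 of 98 (62.2%, against 44.8%), and for state 15, present in 47 of 98 (48.0%, against 24.9%). Of the 98 members, 26 had neither states 3 to 6 nor states 9 to 11 (26.5%, against 14.3%). The family thus held a small group with states 3 to 6, a larger group with stretches of states 9 to 11, and a group without either. States 3 to 6 and 9 to 11 were both present in 10 of 98 (10.2%, against 19.4%).

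**Figure D1:**
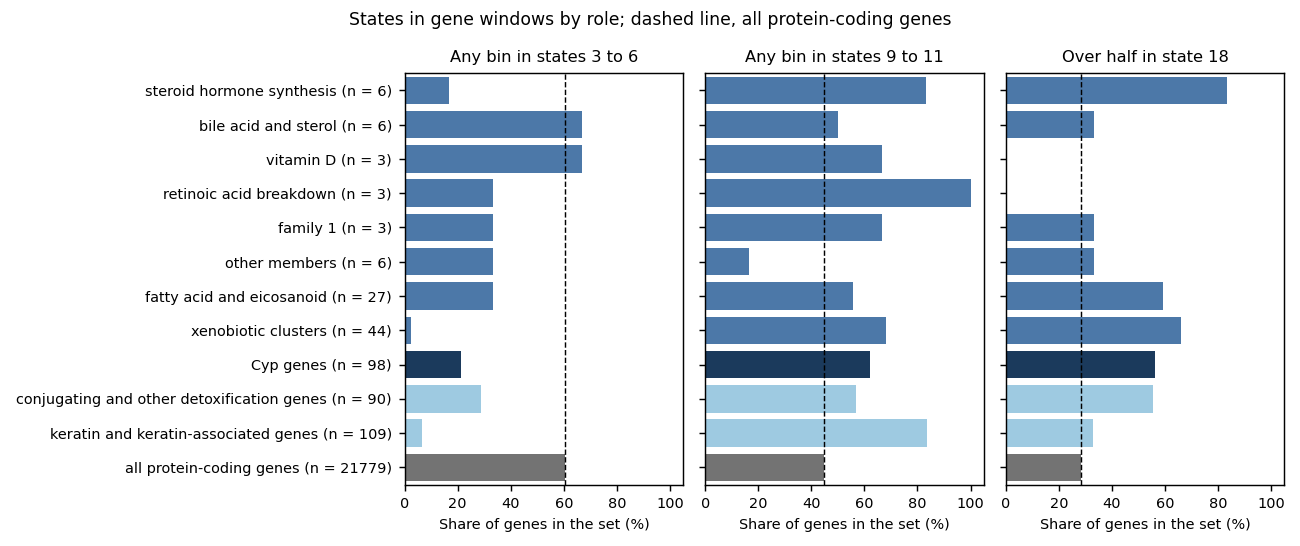
Bars give the share (%) of genes with any bin in states 3 to 6, with any bin in states 9 to 11, and with over 50% of the window in state 18, for the 8 role groups, all 98 P450 genes, 2 other gene families and all protein-coding genes (dashed line). The xenobiotic group has the shortest bar for states 3 to 6, at 2.27%, and the bars of the bile acid and vitamin D groups, at 66.7%, pass the line at 60.3%.

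Neighbouring copies are not independent, so the same counts were made after taking 1 member from each stretch of neighbours within 250 kb. With 35 genes left, states 3 to 6 were present in 15 (42.9%), states 9 to 11 in 19 (54.3%), and state 18 covered over 50% of the window in 12 (34.3%). The distance from the background was smaller for each of the 3 counts than over the 98 members.

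RefSeq start sites were found for 76 of the 98 members. A start lay in states 3 to 6 for 9 of 76 (11.8%, against 51.6% of all genes with a start), in states 9 to 11 for 16 (21.1%, against 18.9%), in states 14 or 15 for 6 (7.89%, against 2.87%), in states 16 or 17 for 7 (9.21%, against 9.59%) and in state 18 for 40 (52.6%, against 20.3%). Cyp26c1 was the 1 member with its start in state 8 (1.32%, against 1.18% in states 7 or 8), and 0 of 76 had it in states 1, 2, 12 or 13 (against 1.3%). Genes with several starts count in each group of states they reach. The 9 members with a start in states 3 to 6 were Cyp20a1, Cyp27a1, Cyp2j6, Cyp2j9, Cyp2r1, Cyp4v3, Cyp11a1, Cyp4f16 and Cyp4f13. Within 1 kb of a start, 10 of 76 members reached states 3 to 6 (13.2%, against 53.7%), Cyp46a1 being the addition.

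**Figure D2:**
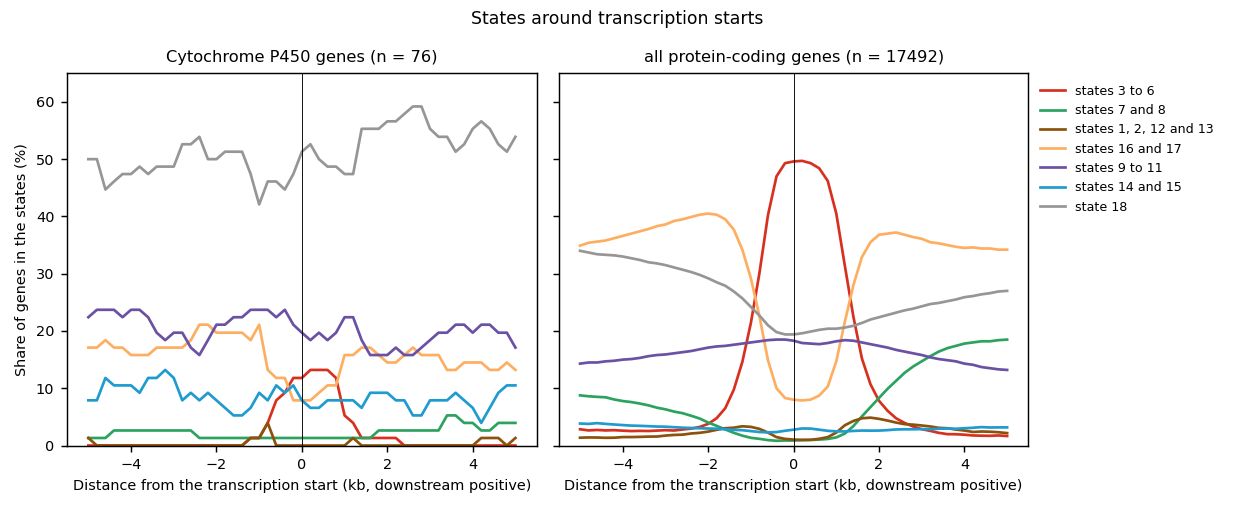
Lines give the share (%) of genes in each group of states at each distance (kb) from the start, downstream positive, for 76 P450 genes (left) and 17492 protein-coding genes (right). In the P450 panel the line of state 18 stays on top, with 52.6% at 0.2 kb, where states 3 to 6 reach 13.2%; in the other panel states 3 to 6 peak at the start.

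Promoters of members with starts in different states are shown so that their sequences can be compared. The 250 bases before the start are given for Cyp4v3, an omega-hydroxylase of fatty acids whose human counterpart is mutated in Bietti crystalline dystrophy (chr8:45333164-45333413, minus strand, start in state 4), for Cyp2r1, the main vitamin D 25-hydroxylase (chr7:114562973-114563222, minus strand, start in state 4), for Cyp26a1, which breaks down retinoic acid (chr19:37697558-37697807, plus strand, start in state 9), and for Cyp3a41a, a xenobiotic oxidase of mouse liver (chr5:145720137-145720386, minus strand, start in state 15). All are from RefSeq on GRCm38.p6, read 5′ to 3′ on the gene's strand, with CG dinucleotides in capitals.
Cyp4v3: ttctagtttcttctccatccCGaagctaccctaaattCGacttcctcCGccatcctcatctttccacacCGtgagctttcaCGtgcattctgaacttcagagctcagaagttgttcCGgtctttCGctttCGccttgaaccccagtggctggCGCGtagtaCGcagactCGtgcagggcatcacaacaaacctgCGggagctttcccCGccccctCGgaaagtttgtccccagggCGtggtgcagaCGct
Cyp2r1: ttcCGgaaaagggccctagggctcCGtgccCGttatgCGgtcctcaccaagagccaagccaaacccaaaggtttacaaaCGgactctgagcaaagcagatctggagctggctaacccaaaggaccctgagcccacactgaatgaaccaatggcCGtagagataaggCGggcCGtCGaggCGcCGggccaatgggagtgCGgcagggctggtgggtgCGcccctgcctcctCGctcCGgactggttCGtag
Cyp26a1: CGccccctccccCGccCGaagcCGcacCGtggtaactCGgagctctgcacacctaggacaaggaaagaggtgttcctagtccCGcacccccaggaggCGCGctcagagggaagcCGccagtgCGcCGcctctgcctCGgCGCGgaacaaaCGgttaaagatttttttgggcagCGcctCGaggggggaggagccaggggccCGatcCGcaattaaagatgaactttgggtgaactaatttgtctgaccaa
Cyp3a41a: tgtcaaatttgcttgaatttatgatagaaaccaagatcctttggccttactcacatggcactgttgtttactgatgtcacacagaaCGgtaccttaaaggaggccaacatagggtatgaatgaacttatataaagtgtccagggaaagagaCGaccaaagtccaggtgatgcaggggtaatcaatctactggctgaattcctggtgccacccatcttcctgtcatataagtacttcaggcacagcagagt

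These stretches held 17 CG dinucleotides for Cyp4v3, 16 for Cyp2r1, 20 for Cyp26a1 and 2 for Cyp3a41a. A high CG content was thus found both at these 2 starts in states 3 to 6 and at a start in state 9. The examples do not stand for all starts in states 3 to 6. Cyp2j9, with its start in state 5, held 4 over the same length, and the 9 members together are given below.

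The role groups differed in which states they carried, and are given in turn. Among the 6 genes of steroid hormone synthesis, 5 lay over 50% in state 18 and 5 held states 9 to 11. Cyp11a1, the mitochondrial enzyme that cuts the cholesterol side chain, was the 1 with states 3 to 6, over 3.08% of its window (record chr9:57998024-58027031). A run of 1.2 kb in states 5 and 6 covered 1 of its 2 listed starts, and the other lay in state 16. The later enzymes of the pathway had no bin of states 3 to 6. State 18 covered 78.5% of the window of Cyp17a1, the 17-hydroxylase and lyase, 66.0% for Cyp21a1, the 21-hydroxylase, 62.3% for Cyp19a1, the aromatase, 75.2% for Cyp11b1, the 11-beta-hydroxylase, and 61.5% for Cyp11b2, the aldosterone synthase. The rest of those 5 windows was mainly in states 9 to 11, from 17% for Cyp11b1 to 34.0% for Cyp21a1.

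The bile acid and sterol genes were the most mixed group, with states 3 to 6 in 4 of 6. Cyp7a1, the rate-limiting enzyme of bile acid synthesis (record chr4:6265612-6275632), lay wholly inside a segment of state 18 of 40.8 kb. Cyp8b1, the sterol 12-alpha-hydroxylase, lay 100% in states 16 and 17. The enzymes of the alternative route carried states 3 to 6. Cyp27a1, the mitochondrial sterol 27-hydroxylase (record chr1:74713148-74737897), had them over 4.60% of its window as a run of 1.6 kb across its start, with 70.5% of the window in state 18. Cyp7b1, the oxysterol 7-alpha-hydroxylase, had a run of 2.2 kb across an end of its record, 11% in states 7 and 8 and 53.2% in states 16 and 17. Cyp39a1, another oxysterol hydroxylase, had a run of 2.2 kb that also overlaps the record of the neighbouring gene Slc25a27, so that run cannot be given to 1 of the 2 genes. Cyp46a1, the brain cholesterol 24-hydroxylase, stood apart, with 70.5% of its window in states 9 to 11, its start in state 9 and a run of 0.8 kb in states 3 and 5 that began 0.09 kb away.

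Among the 3 vitamin D genes, the step upstream of the hormone and the step that destroys it differed. Cyp2r1 had states 3 to 6 over 6.11% of its window, in a run of 1.4 kb at its start, and 48.9% in states 16 and 17. Cyp24a1, the 24-hydroxylase that inactivates vitamin D (record chr2:170482957-170497145), had none, with 69.5% in states 9 to 11 and 30.5% in state 18. Cyp27b1, the 1-alpha-hydroxylase that makes the active hormone, had its start in state 11. The states 3 to 6 in its window (4.11%) lay in the flank, within the record of Marchf9, and not in its own record.

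All 3 retinoic acid hydroxylases had states 9 to 11. Cyp26a1 (record chr19:37697738-37701536) was the member with the highest share, 100% of its window of 13.80 kb, with 2.66 kb in state 9 and 11.14 kb in state 11. A segment of state 9 of 2.2 kb held its start. Cyp26c1, its neighbour, shared that segment of state 9 at its 3′ side and carried 41.7% in states 7 and 8, with its start in state 8. Cyp26b1 (record chr6:84571414-84593908, minus strand) was the 1 of the 3 with states 3 to 6, over 6.15% of its window. They formed a run of 2.0 kb inside the record, 8.61 kb from the listed start, next to a segment of state 9 of 4.8 kb, while the start itself lay in state 18. Its window had 12.9% in states 7 and 8, 16.6% in states 9 to 11, 32.0% in states 16 and 17 and 32.3% in state 18, so no group of states held over 50%.

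Family 1 holds the enzymes that oxidise polycyclic aromatic compounds and are switched on by the aryl hydrocarbon receptor. Cyp1b1 (record chr17:79706940-79715061) had 84.2% of its window in states 9 to 11, with its start in state 11. Cyp1a1 (record chr9:57687928-57703824) had its start in state 11 too, with 27.8% in states 9 to 11, 26.5% in states 16 and 17 and 42.5% in state 18. The run of states 3 to 6 in its window, 2.2 kb long, lay at the start of the next gene, Edc3, 10.39 kb away. Cyp1a2, which neighbours Cyp1a1, had 54.2% in state 18 and 45.8% in states 16 and 17, and no states 9 to 11. Their promoters are shown for the core of the receptor's binding element, GCGTG, read on both strands. The 250 bases before the start of Cyp1b1 (chr17:79715062-79715311, minus strand) and of Cyp1a1 (chr9:57697363-57697612, plus strand), RefSeq, GRCm38.p6, 5′ to 3′ with CG in capitals, were as follows.
Cyp1b1: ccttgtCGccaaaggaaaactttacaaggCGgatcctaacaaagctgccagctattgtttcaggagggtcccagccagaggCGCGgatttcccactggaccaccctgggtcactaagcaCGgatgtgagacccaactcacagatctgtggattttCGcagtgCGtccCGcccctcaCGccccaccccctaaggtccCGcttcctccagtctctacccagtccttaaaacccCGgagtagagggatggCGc
Cyp1a1: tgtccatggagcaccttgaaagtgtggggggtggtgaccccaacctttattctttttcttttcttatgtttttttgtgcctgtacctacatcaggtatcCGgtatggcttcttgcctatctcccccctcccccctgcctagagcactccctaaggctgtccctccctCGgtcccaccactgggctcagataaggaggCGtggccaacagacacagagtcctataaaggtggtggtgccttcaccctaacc

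Each of the 2 stretches held 1 match to GCGTG. Cyp1b1 had 12 CG dinucleotides and Cyp1a1 had 3, and Cyp1a1 had TATAAA beginning 30 bases before its start. Over the 300 bases from 250 before to 50 after the start's first base, GCGTG was found in 16 of 76 P450 genes (21.1%) and in 41.4% of all 17492 genes. It was found in 8 of the 15 members with states 3 to 6 in the window (53.3%) and in 8 of the 61 without (13.1%). GCGTG contains a CG, and a match to it is no evidence of binding.

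**Figure D3:**
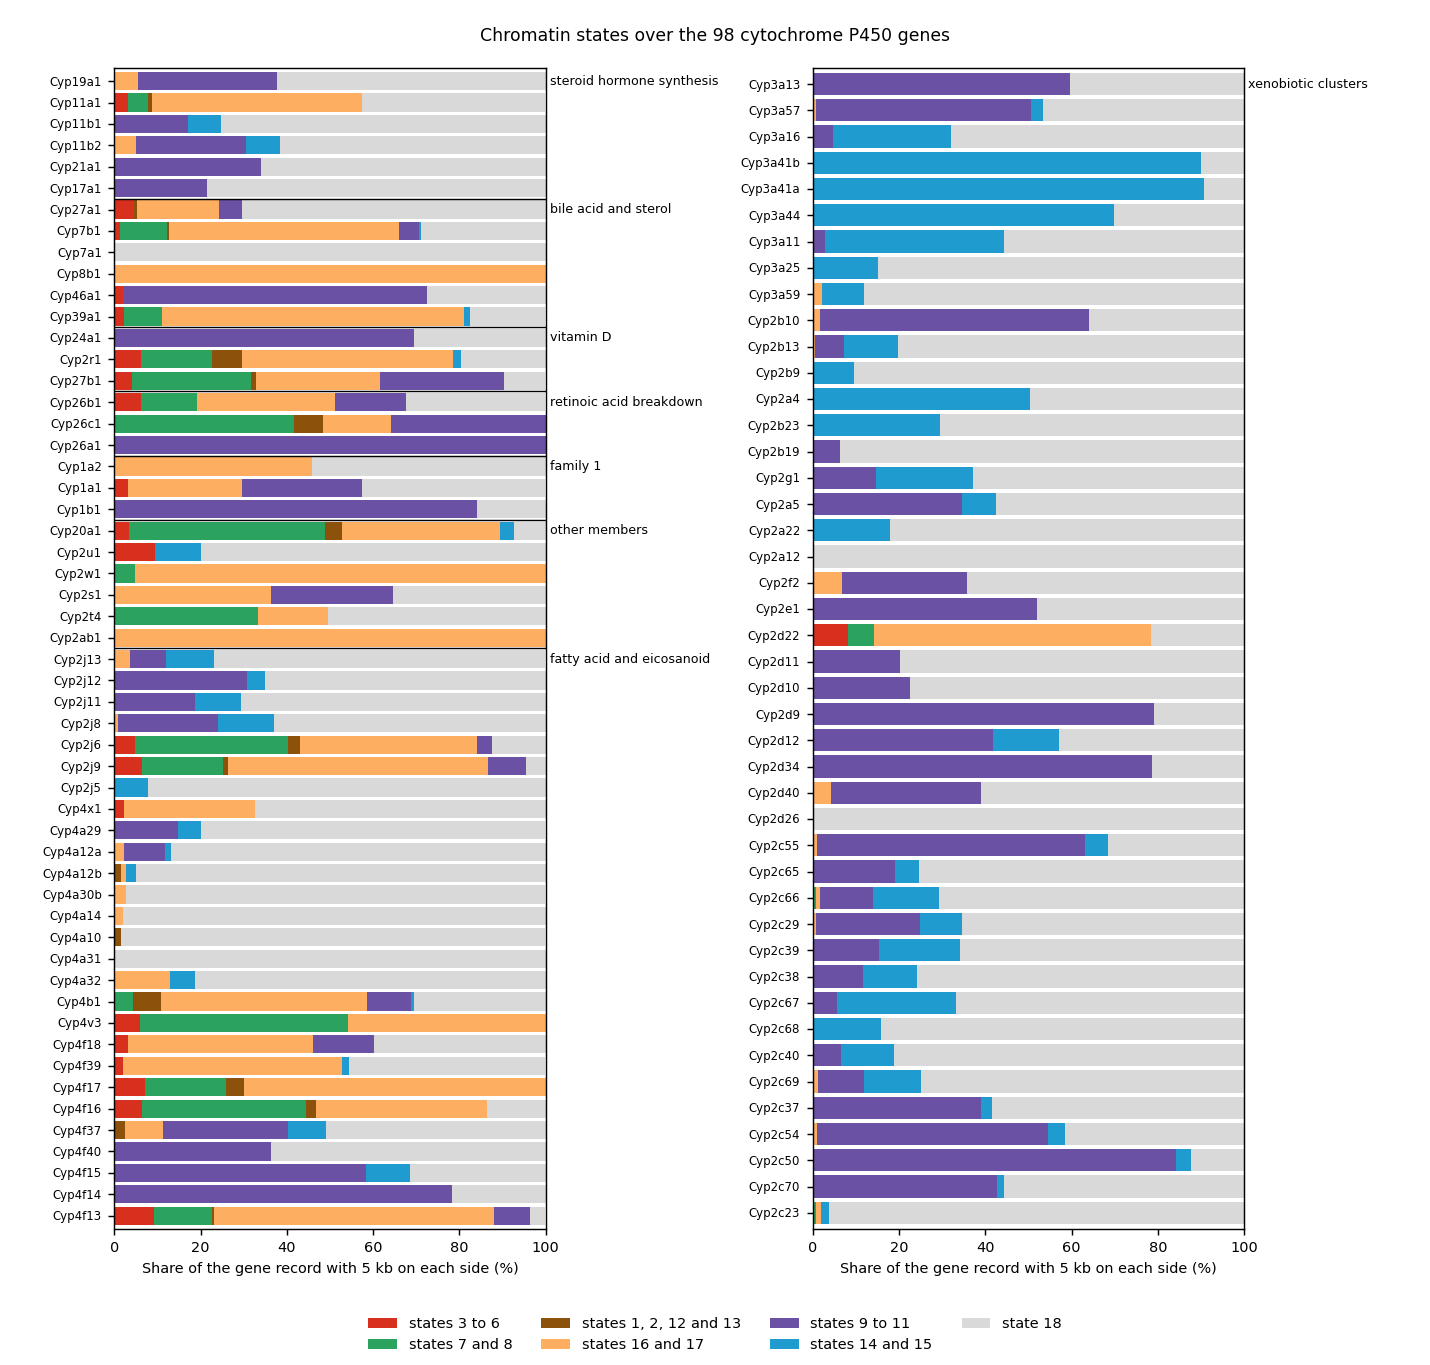
Each bar is the window of 1 of the 98 P450 genes, split by the share (%) of bases in each group of states and ordered by role. States 3 to 6 never exceed 9.30% of a window, and 4 windows (Cyp7a1, Cyp4a31, Cyp2a12 and Cyp2d26) are wholly in state 18.

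The xenobiotic group, the Cyp2a to Cyp2g and Cyp3a genes, holds 44 members, and 1 of them had states 3 to 6 (2.27%, against 60.3% of all genes). That member was Cyp2d22, at one edge of the Cyp2d cluster (record chr15:82370527-82380260), with 8.11% in states 3 to 6 and 64.2% in states 16 and 17. State 18 covered over 50% of the window in 29 of 44 (65.9%, against 28.3% of all genes). States 9 to 11 were present in 30 (68.2%, against 44.8%) and state 15 in 30 (68.2%, against 24.9%). Of the 38 with a start, 26 had one in state 18 (68.4%, against 20.3% of all genes with a start). A start lay in states 9 to 11 for 7 (18.4%, near the 18.9% of all genes) and in states 14 or 15 for 6 (15.8%, against 2.87%). The best known drug-metabolising members followed no single pattern beyond the lack of states 3 to 6. Cyp3a11, the main mouse Cyp3a of liver, had 55.8% in state 18 and 41.4% in states 14 and 15. Cyp2e1, which oxidises ethanol, had 51.9% in states 9 to 11 and 48.1% in state 18. Cyp2b10, the classic target of the receptor CAR, had 62.5% in states 9 to 11, and its start lay in state 11. Cyp2f2, a lung enzyme, had 64.3% in state 18.

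The highest shares of states 9 to 11 outside Cyp26a1 and Cyp1b1 were in these clusters. Cyp2c50 had 84.2% of its window in them, including a segment of state 11 of 14.4 kb, while Cyp2c37 in the same cluster had 58.4% in state 18. Cyp2d9 had 79.2% and Cyp2d34 had 78.7%, the latter in a segment of state 11 of 21.6 kb. In the same cluster Cyp2d26 was wholly in state 18 and Cyp2d10 and Cyp2d11 were at 77.4% and 79.8% in state 18. Over the family, 14 of 98 windows were over 50% in states 9 to 11 (14.3%, against 9.17% of all genes).

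Among the 8 loci with 4 or more members, the share of state 15 was highest in the Cyp3a cluster of chromosome 5. Over the 769.8 kb from Cyp3a57 to Cyp3a59, with 8 members, states 14 and 15 held 50% of bases, state 15 alone 46.2%, and state 18 held 45.1%. State 15 covers 4.56% of the genome. Windows over 50% in state 15 numbered 4 of 98 (4.08%, against 1.21% of all genes), namely Cyp3a41b, Cyp3a41a, Cyp3a44 and Cyp2a4. States 14 and 15 together held 90.6% of the Cyp3a41a window, 90% of the Cyp3a41b window and 69.9% of the Cyp3a44 window, but 15.1% of the Cyp3a25 window and 9.57% of the Cyp3a59 window. Cyp3a13, the Cyp3a gene that lies apart from the cluster, had 0% in states 14 and 15 and 59.7% in states 9 to 11. All 15 Cyp2c members had some state 15, up to 27.6% in states 14 and 15 for Cyp2c67.

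Cyp3a41a and Cyp3a41b are near-identical copies, and their starts nevertheless lay in different states, 15 for the former and 18 for the latter. Their promoters (Cyp3a41b at chr5:145584731-145584980, minus strand, RefSeq, GRCm38.p6, CG in capitals) matched at 292 of 300 bases (97.3%).
Cyp3a41b: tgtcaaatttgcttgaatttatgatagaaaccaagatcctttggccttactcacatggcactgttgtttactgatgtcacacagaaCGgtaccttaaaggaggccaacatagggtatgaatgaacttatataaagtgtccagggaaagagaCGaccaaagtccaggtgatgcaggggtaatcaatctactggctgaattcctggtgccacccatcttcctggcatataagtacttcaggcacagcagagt

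Of 197 promoter pairs within loci, 8 pairs over 8 genes matched at 90% or more of the 300 bases. The highest was Cyp2b13 with Cyp2b9, at 298 bases (99.3%), with starts in states 15 and 18. How reads that fit several copies were placed is not given in the sources used here, so states over such copies are uncertain, and the part of read placement in them was not tested.

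**Figure D4:**
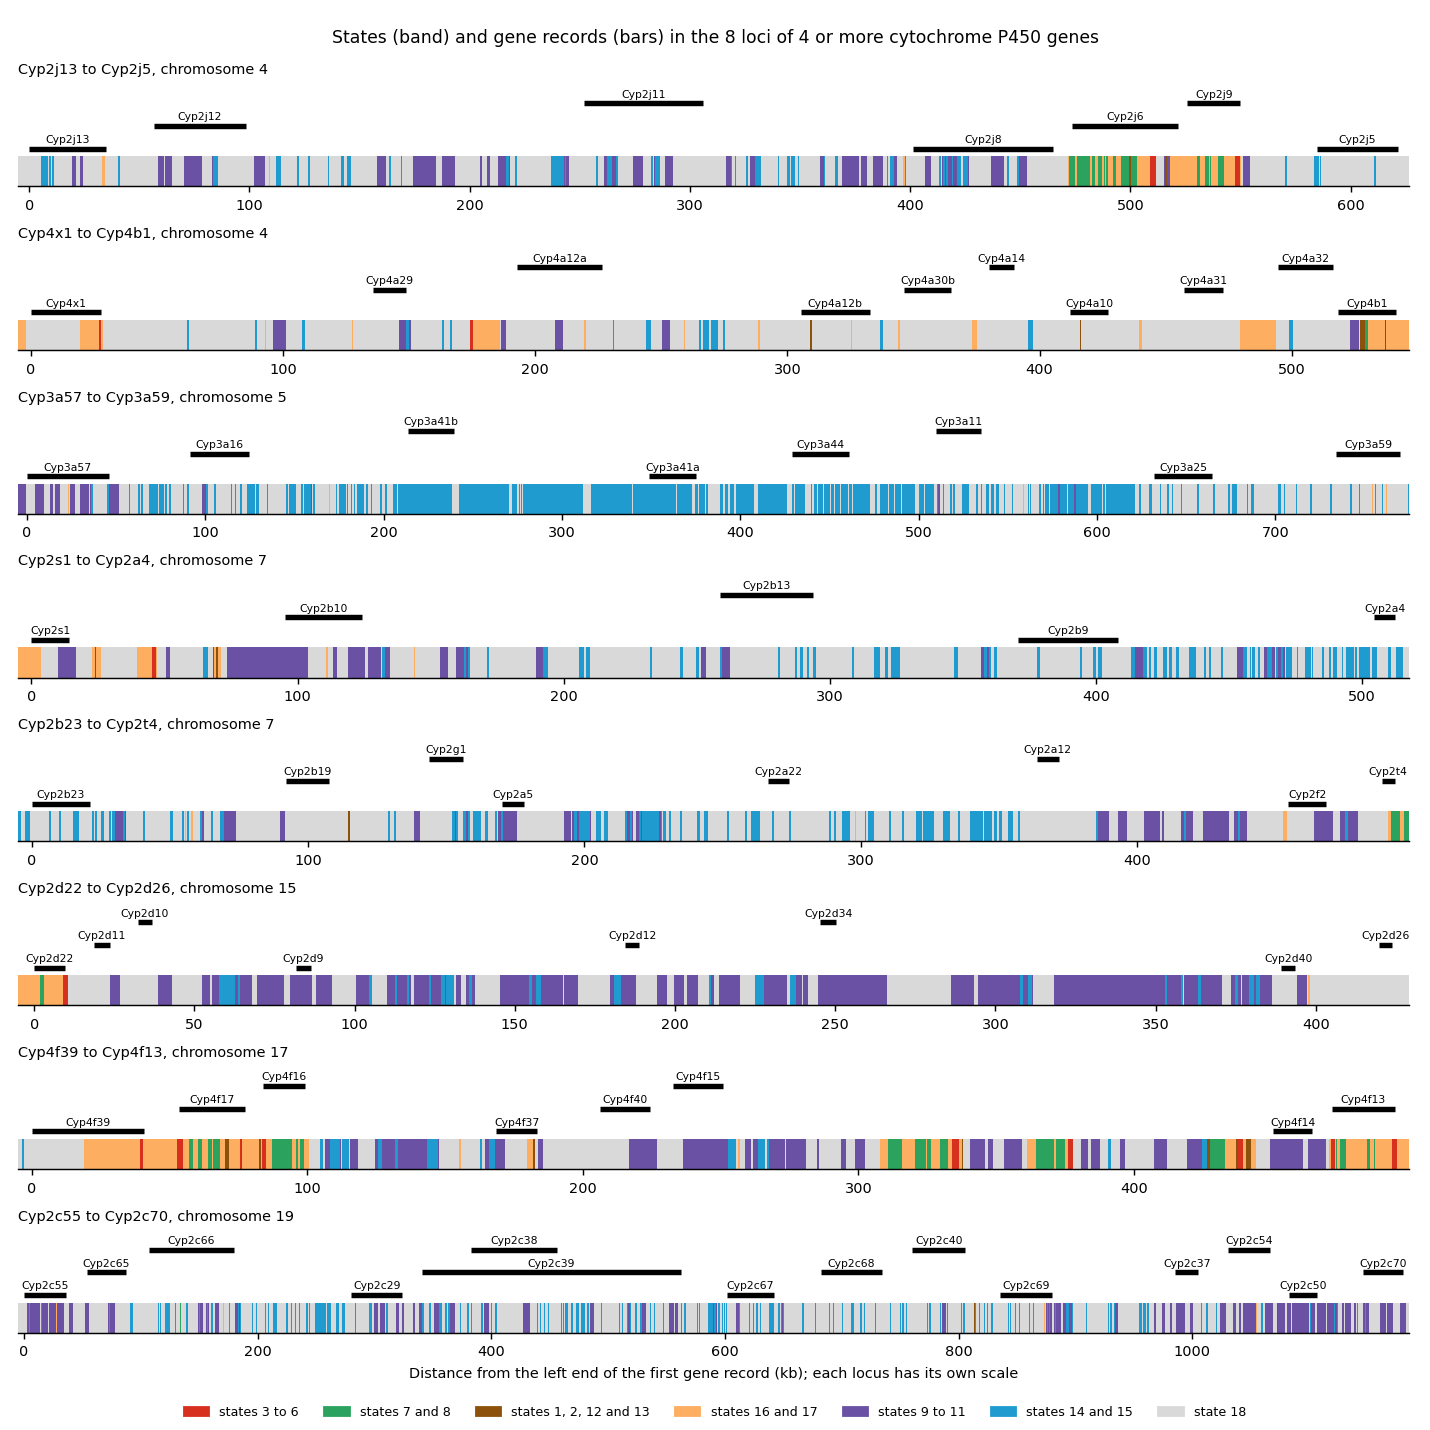
Bands show the group of states along the 8 loci of 4 or more P450 genes, with distance (kb) from the left end of the first record on the x axis and gene records as black bars above. Cyp2j6 and Cyp2j9 stand out from the other Cyp2j genes, states 14 and 15 fill much of the Cyp3a locus, and state 18 fills most of the Cyp4a genes.

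The fatty acid and eicosanoid group, the Cyp2j and Cyp4 genes, held 9 of the 21 members with states 3 to 6, out of 27 (33.3%, against 60.3% of all genes). They were Cyp2j6, Cyp2j9, Cyp4v3, Cyp4x1 and 5 of the 9 Cyp4f genes. Cyp4v3 (record chr8:45305801-45333163) had the highest share of states 7 and 8 of any member, 48.2% of its window, with 5.89% in states 3 to 6, 45.9% in states 16 and 17 and no state 18. The 8 Cyp4a genes, omega-hydroxylases induced through PPAR-alpha in liver and kidney, had none of states 3 to 6 and all 8 lay over 50% in state 18, with a median of 96.2%. Cyp4x1, in the same cluster as the Cyp4a genes, had 2.12% in states 3 to 6, in a run of 0.8 kb at the start of the antisense gene Cyp4x1os. Because the map has no strand, that run cannot be assigned to either gene.

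The Cyp2j cluster on chromosome 4 held both patterns within a few genes. Cyp2j enzymes make epoxides of arachidonic acid. Cyp2j6 (record chr4:96516138-96564305) had 4.81% in states 3 to 6 and 35.4% in states 7 and 8, and Cyp2j9 (record chr4:96568424-96592523) had 6.45% and 18.8%. The other 5 members had none of either and between 63.0% (Cyp2j8) and 92.3% (Cyp2j5) in state 18. Cyp2j9 and Cyp2j5 are direct neighbours, and the 250 bases before their starts (chr4:96591486-96591735 with its start in state 5, and chr4:96664120-96664369 with its start in state 18, both minus strand, RefSeq, GRCm38.p6, CG in capitals) are set side by side because they were in different states at short distance.
Cyp2j9: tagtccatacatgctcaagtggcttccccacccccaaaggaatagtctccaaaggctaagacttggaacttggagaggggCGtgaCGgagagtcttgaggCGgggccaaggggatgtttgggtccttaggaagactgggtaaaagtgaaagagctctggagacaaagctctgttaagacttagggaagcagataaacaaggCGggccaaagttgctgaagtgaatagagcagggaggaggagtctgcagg
Cyp2j5: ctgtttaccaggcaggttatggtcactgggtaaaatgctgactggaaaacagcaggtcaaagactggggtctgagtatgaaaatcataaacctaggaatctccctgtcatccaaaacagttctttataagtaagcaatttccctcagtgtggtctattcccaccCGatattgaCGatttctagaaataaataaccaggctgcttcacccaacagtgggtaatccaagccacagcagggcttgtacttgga

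Cyp2j9 had 4 CG dinucleotides there and Cyp2j5 had 2, so that both were far below Cyp4v3.

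The Cyp4f cluster on chromosome 17, whose enzymes hydroxylate leukotrienes and long fatty acids, had the highest share of states 3 to 6 of the 8 loci with 4 or more members, 2.81% of 494.7 kb, including runs between the P450 records. Cyp4f13 had 9.17% in states 3 to 6 with 64.8% in states 16 and 17, Cyp4f17 had 7.07% with 70.0%, and Cyp4f16 had 6.34% with 39.8% and a further 38.0% in states 7 and 8. These 3 differed from the genes between Cyp4f16 and Cyp4f13. Cyp4f14, next to Cyp4f13, had 78.2% in states 9 to 11, Cyp4f15 had 58.4%, and Cyp4f40 and Cyp4f37 had 63.6% and 50.9% in state 18. Cyp4f39 had states 3 to 6 over 1.98%, in a run 39.28 kb from its own start at the far end of its record. Cyp4f18, a leukotriene B4 hydroxylase of neutrophils that lies alone on chromosome 8, had a run of 1.0 kb at its 3′ end, 20.43 kb from its start, and its start lay in state 17.

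Of the 6 members outside these roles, Cyp20a1, an orphan P450 of unknown substrate (record chr1:60343300-60388060), and Cyp2u1, a hydroxylase of long-chain fatty acids (record chr3:131290491-131304157), had states 3 to 6. Cyp20a1 had 3.29% there and 45.5% in states 7 and 8, including a segment of state 8 of 11.2 kb. Cyp2u1 had the highest share of states 3 to 6 of all 98, 9.30%, yet 79.9% of its window was state 18 and none was in states 7 or 8. Cyp2w1 and Cyp2ab1 had 95.3% and 100% in states 16 and 17, Cyp2s1 had its start in state 9, and Cyp2t4 had 33.4% in states 7 and 8 without states 3 to 6.

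The runs of states 3 to 6 were 0.2 to 2.8 kb long. Of the 21 members, 19 had a run that overlapped their own record, and Cyp1a1 and Cyp27b1 had runs in the flank only, at a neighbour. Of the 15 with a listed start, 10 had a run within 1 kb of it, and the others were Cyp26b1, Cyp4f18, Cyp4f39, Cyp1a1 and Cyp27b1. States 7 or 8 accompanied states 3 to 6 in 14 of the 21 (66.7%, against 85.1% of all genes with states 3 to 6). With the count limited to the bins that hold an end of the record, states 3 to 6 were present in 13 of 98 (13.3%, against 47.6% of all genes).

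The 98 members fell into 35 loci on 15 chromosomes, when members within 250 kb of each other were joined. In the 8 loci of 4 or more members, 8 of 68 members had states 3 to 6 (11.8%). In the loci of 1 to 3 members it was 13 of 30 (43.3%), and among the 24 members alone in their locus it was 12 (50%), with 60.3% over all genes. Loci in which a member's window held states 3 to 6 numbered 17 of 35, and 4 of the 8 large ones. The Cyp2c cluster, with 14 members over 1180.3 kb, had 0% in states 3 to 6, 64.5% in state 18, 19.8% in states 9 to 11 and 15.4% in states 14 and 15. The Cyp2d cluster had 50.6% in states 9 to 11 and 38.4% in state 18 over 423.9 kb. The cluster from Cyp4x1 to Cyp4b1 had 80.7% in state 18, the highest of the 8. Large clusters thus differed in which state filled them. Each of the 8 had under 3% in states 3 to 6, from 0% in the Cyp2c cluster to 2.81% in the Cyp4f cluster. These states cover 1.13% of the genome and 2.99% of all gene windows pooled.

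Promoter CG content was read from the RefSeq sequences, as the ratio of observed CG to the number that the C and G counts would give. The median ratio was 0.17 over the 76 P450 genes, with 6 of 76 over 0.6 (7.89%), against 0.56 over all 17492 genes with 47.1% over 0.6. Members with states 3 to 6 in the window had a median of 0.31 (n = 15, range 0.09 to 0.97), and members without had 0.13 (n = 61, range 0 to 0.89), so the ranges overlapped. Over the 250 bases before the start alone the medians were nearer, at 0.26 and 0.15. The 6 members over 0.6 were Cyp46a1 at 0.97, Cyp26a1 at 0.89, Cyp4v3 at 0.76, Cyp2r1 at 0.71, Cyp20a1 at 0.67 and Cyp1b1 at 0.64. Of these, Cyp4v3, Cyp2r1 and Cyp20a1 had their start in states 3 to 6, and Cyp46a1, Cyp26a1 and Cyp1b1 had it in states 9 or 11. Starts in states 3 to 6 had a median of 0.31 among the P450 genes (n = 9) and 0.77 among all genes with such a start. Starts in state 18 had 0.13 (n = 40) and 0.17.

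**Figure D5:**
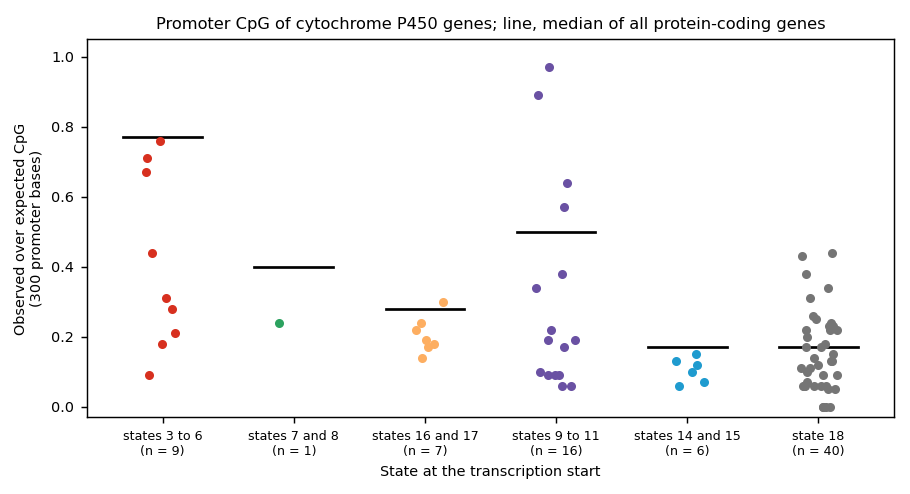
Points are P450 genes, placed by the group of states at the start (x axis; genes with several starts can appear in more than 1 group) and the CpG ratio of 300 promoter bases (y axis), with black lines for the median of all protein-coding genes. The 6 points over 0.6 sit in states 3 to 6 (3 genes) and states 9 to 11 (3 genes), and no point in state 18 exceeds 0.44.

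The letters TATAAA, searched on both strands of the same 300 bases, were in 33 of 76 P450 promoters (43.4%) and in 14.8% of all 17492 genes. They were in 2 of the 15 members with states 3 to 6 in the window (13.3%) and 31 of the 61 without (50.8%). The 2 were Cyp26b1 and Cyp1a1, whose runs of these states lay 8.61 and 10.39 kb from the start. The split is thus by window and not by the state at the promoter. Neighbouring copies, some with near-identical promoters, count separately in these shares. A match is a description of letters and not a site.

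The genes that serve the P450 enzymes were in other states than most of the family. Of 12 listed symbols for electron supply and heme turnover, 11 matched a gene in the table, and Fdx1l was not found under that name. All 11 had states 3 to 6 (against 60.3% of all genes), with a run that overlapped their own record, and 0 had over 50% in state 18 (against 28.3%). Por, the reductase that feeds the microsomal P450 enzymes, had 4.25% in states 3 to 6, 39.0% in states 7 and 8 and 51.8% in states 16 and 17, with its start in state 3. Fdx1 and Fdxr, the ferredoxin and its reductase that feed the mitochondrial members, had 6.54% and 11.5% in states 3 to 6, and Fdxr also had 27.1% in states 9 to 11. Hmox1, the inducible heme oxygenase, had 5.89% with 90.6% in states 16 and 17.

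Among 24 listed regulators, 15 had states 3 to 6 (62.5%, near the 60.3% of all genes), 13 of them in a run that overlapped their own record. States 9 to 11 were present in 16 (66.7%, against 44.8%). Ahr, the aryl hydrocarbon receptor, had 5.53% in states 3 to 6 and 61.3% in states 16 and 17. Its partner Arnt had its start in state 5. Of their family 1 targets, Cyp1a1 and Cyp1b1 had the start in state 11 and Cyp1a2 had it in state 17. Vdr, the vitamin D receptor, had its start in state 3 and 35.7% in states 7 and 8. Rara and Rarg, retinoic acid receptors, had 15.7% and 28.2% in states 3 to 6. Rarb, another of them, had 0.454% there and 64.5% in state 18. The liver and steroid regulators differed from one another. Nr1h3 and Nr1h2 had 21.6% and 27.9% in states 3 to 6 and no state 18. Star had 47.5% in states 7 and 8, and Nr0b2 lay 100% in states 16 and 17. Hnf4a had 78.5% in state 18, Nr1i2, which encodes the xenobiotic receptor PXR, had 68.0%, and Nr5a1, which drives steroid synthesis genes, had 63.3% in states 9 to 11. Nr1i3, which encodes CAR, had its start in state 17, and the states 3 to 6 in its window (13.4%) lay in the flank, 2.56 kb from its record.

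The P450 genes outside the naming rule also differed from one another. Cyp51, the sterol 14-demethylase of cholesterol synthesis, had 6.47% in states 3 to 6 and 69.7% in states 7 and 8, a share above that of any of the 98 members. Tbxas1, the thromboxane synthase of platelets and macrophages, had 3.3% and 50.9%. Ptgis, the prostacyclin synthase of vessel walls, had no states 3 to 6, 23.4% in states 9 to 11 and 74.9% in state 18.

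For comparison, 2 other families of clustered genes were counted in the same way. Among 90 conjugating and other detoxification genes (the Ugt, Sult, Gst, Fmo and Ces symbols), states 3 to 6 were present in 26 (28.9%), states 9 to 11 in 51 (56.7%) and over 50% of state 18 in 50 (55.6%). These shares were near those of the P450 genes, at 21.4%, 62.2% and 56.1%. Among 109 keratin and keratin-associated genes, states 9 to 11 covered over 50% of the window in 62 (56.9%). That compares with 14.3% of the P450 genes and 9.17% of all genes. State 18 did so in 36 keratin genes (33.0%, against 28.3% of all genes). The median keratin window was 11.65 kb, against 32.04 kb for the P450 genes. The 5 kb flanks thus make up most of a typical keratin window, and the window counts of the 2 families are not alike. The differences between these families were not tested, because neighbouring genes share segments and the map has no replicates.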

How the data were processed

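The labels' protocols give micrococcal nuclease digestion and a rat antibody against H3.3 for the 6 libraries of WT and HIRA KO HSCs. Aligning and peak tools (Bowtie2, deepTools, HOMER and MACS2, no versions) and build mm10 stand in the submitters' processing notes. The deposited value is 1 state number per segment, assigned by the authors. Per the file headers, states were ordered by emission, and ChromHMM appears in track and file names only; its version and input are not stated there. No counts were used, so depth is unknown.

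Segments were split into bins of 200 bp, and bases per state were counted over each gene record with 5 kb on each side (Python 3.11.15, numpy 2.4.6, pandas 2.3.3, scipy 1.17.1). Genes in the first 3 Mb of a chromosome (108) or outside the map (13) were left out. Starts and strand came from RefSeq's promoter table (250 bases before and 50 bases from the start). The CpG ratio was CG count times length over the product of C and G counts, averaged over a gene's starts. With 1 map and no replicates, no test was run. The rule for named genes took the 5 members highest in states 7 and 8 and in states 9 to 11, and all with states 3 to 6; others were chosen by role or after their values were seen. Members, role and comparison lists and state groupings were chosen with earlier results of these data known. Window counting was tested on simulated segments, and 200 of 200 windows were exact. Alternatives were other flanks, record ends only, 1-bin segments left out, other thresholds and locus distances, autosomes only, the expanded track and 1 member per locus.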

Additional observations from a re-analysis of the deposited data

How the results depend on the processing

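Of 49 alternative values, 40 stayed near the reported one (within 1.5 times for a count) and 9 moved. The 40 include values that could not move. All 98 members lie on autosomes, so a limit to autosomes left every count as it was. The expanded track gave the same state in 100% of bins. With members within 250 kb counted once, states 3 to 6 were present in 15 of 35 genes, states 9 to 11 in 19, states 7 or 8 in 12, state 18 covered over 50% of the window in 12, and its median share was 39.8%. With only the bins that hold an end of the record, states 3 to 6 were present in 13 of 98 members (against 47.6% of all genes), states 9 to 11 in 30 (30.6%, against 23.9% of all genes) and states 7 or 8 in 5 (5.1%, against 24.7%). With the threshold at 90% of the window, state 18 passed it in 12 members (12.2%, against 7.1% of all genes). Fewer genes, fewer bins and a higher threshold enter these counts by construction. Flanks of 0, 1 or 10 kb gave 19, 19 and 27 members with states 3 to 6, against 56.5%, 57.6% and 63.1% of all genes. The median share of state 18 was then 59.2%, 57.8% and 58.5% for the members, but 0%, 3.4% and 20.6% for all genes, so the gap depends on the flank. The difference between the median CpG ratios with and without states 3 to 6 fell from 0.18 to 0.11 over 250 bases. It is counted among the 40, since each median stayed inside the 95% interval of the reported one. The intervals were 0.18 to 0.67 with these states and 0.1 to 0.18 without. They take genes as independent, which neighbouring copies are not. No paired analysis was possible because the map is 1 segmentation with no value per library, and leaving out a replicate was not possible for the same reason.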

Other observations

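P450 pseudogenes, which the count of protein-coding members leaves out, were read in the same way. The table holds 34 of them on the map, 5 of which are listed as transcribed. States 3 to 6 were present in the windows of 2 of 34 (5.88%, against 60.3% of protein-coding genes). For Cyp4a28-ps, at 2.28%, they were the edge of the run already given for Cyp4x1 and lay outside its record. For Cyp4f41-ps, at 17%, they were the run at the start of Cyp4f13 and a separate run of 2.4 kb that overlapped its own record. States 9 to 11 were present in 23 (67.6%, against 44.8%), and 22 lay over 50% in state 18 (64.7%, against 28.3%), with a median of 63.6% (against 14.3%). Cyp2d38-ps lay 100% in states 9 to 11, and Cyp3a63-ps, in the Cyp3a cluster, had 93.5% in states 14 and 15.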
